A study of Mus musculus with 2 samples.

Results

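The Mt3-Trim63 fiber barcodes were 200 droplets of the injured library in which muscle fiber transcripts came together with a raised share of UMIs from Mt3, Trim63, Rrad, Gabarapl2 and Mustn1. A barcode marks the transcripts of 1 droplet, and a unique molecular identifier (UMI) marks 1 captured transcript. The members were found in 3 steps. Barcodes with at least 500 detected genes, at most 10% mitochondrial UMIs and at least 5% of UMIs from 10 fiber genes (Myf6, Myh4, Acta1, Ckm, Mylpf, Tnnt3, Tnnc2, Myh1, Pvalb and Atp2a1) were called fiber barcodes. The 100 with the highest share of the slow-fiber genes Tnnt1, Tnnc1, Tnni1, Myl3, Myl2 and Myoz2 were set aside, and then the 120 with the highest share of Ankrd1, Csrp3, Hspb1, Lmcd1, Otud1 and Mybph. Of the 719 barcodes left, the 200 with the highest share of the 5 rule genes were the members, and the other 519 are called the remaining fast-fiber barcodes. The members were thus 200 of 939 fiber barcodes, of 1468 barcodes that met the limits on genes and mitochondrial UMIs, and of 2416 barcodes deposited in all.

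The study profiled satellite cells, the stem cells of skeletal muscle, from the tibialis anterior (TA) muscle of 8-week-old mice that were Pax7 CreERT2/+ ;Rosa26 mTmG/+, a strain in which Cre is driven by the Pax7 gene and can switch a membrane reporter. The QSC library came from uninjured muscle and the ASC library from muscle 1.5 days after injection of cardiotoxin (CTX), a venom toxin that destroys muscle fibers. Both came from sorted cells, with 1 library per group, so that group and library cannot be told apart and no difference has a replicate check. All values are therefore given with intervals for counting error only, and no test was made.

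Depth differed between the libraries. The ASC library held 1650 barcodes with 9059807 UMIs and the QSC library 766 barcodes with 1346020 UMIs, of which 516 met the limits on genes and mitochondrial UMIs and 104 were fiber barcodes. The libraries shared 4 barcode sequences, 1 of them a member. The members held 529638 UMIs, with 798 UMIs in the shallowest, a median of 2292.5 and 7897 in the deepest. They had a median of 964.5 genes, and the remaining fast-fiber barcodes had a median of 2892 UMIs and 1060 genes.

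An adult muscle fiber is one large cell with many nuclei, packed with contractile proteins and with the enzymes that supply them with energy. Fibers that waste, lose their nerve or are damaged switch on genes of protein breakdown, among them the muscle-specific ubiquitin ligases Trim63 (MuRF1) and Fbxo32 (atrogin-1), which tag proteins for the proteasome. Metallothioneins are small cysteine-rich proteins that bind zinc and copper. Genes of the family such as Mt1 and Mt2 respond to metals through the metal-responsive factor MTF1. Mt1 and Mt2 also respond to glucocorticoids and oxidative stress.

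Of the rule genes, Mt3 encodes metallothionein 3, a family member best known from the brain. Trim63 encodes the ligase MuRF1. Rrad encodes a small GTPase that binds calcium channel subunits, Gabarapl2 a member of the ubiquitin-like family that builds autophagosomes, and Mustn1 a small nuclear protein of muscle and skeleton. In the GENCODE M21 annotation of mm10, Mt3 lies on chromosome 8 from 94152607 to 94154146 on the plus strand. Its relatives Mt4 (94137197 to 94139031), Mt2 (94172664 to 94173568) and Mt1 (94179082 to 94180327) lie beside it on the same strand. Trim63 lies on chromosome 4 from 134315120 to 134329629 and Mustn1 on chromosome 14 from 30879200 to 30881610, both on the plus strand. Rrad (104628070 to 104631327, minus strand) and Gabarapl2 (111940703 to 111953612, plus strand) lie on chromosome 8. Rrad overlaps the antisense gene Gm33023. Fbxo32, Cdkn1a and Mt2 also overlap a gene of the opposite strand. Whether the counting used strand is not given in the sources used here, so these counts are less certain.

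Promoters are shown for the rule gene Mt3, its relative Mt1 and Trim63. Each is 300 bases of the gene's strand from RefSeq on GRCm38.p6, 250 before the start site and 50 after it. In Mt1 (chr8:94178839-94179138, plus strand) and Mt3 (chr8:94152357-94152656, plus strand), capitals mark the core of the metal response element, searched as TGCACNC or TGCGCNC on both strands. In Trim63 (chr4:134314870-134315169, plus strand), capitals mark the forkhead motif TGTTTAC and the E-box CAGCTG.
Mt1: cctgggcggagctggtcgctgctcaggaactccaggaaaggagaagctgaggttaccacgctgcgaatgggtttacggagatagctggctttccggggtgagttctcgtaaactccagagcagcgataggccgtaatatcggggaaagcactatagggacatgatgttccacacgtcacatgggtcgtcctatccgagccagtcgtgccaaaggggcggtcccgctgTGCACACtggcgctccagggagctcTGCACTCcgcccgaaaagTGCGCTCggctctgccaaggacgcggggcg
Mt3: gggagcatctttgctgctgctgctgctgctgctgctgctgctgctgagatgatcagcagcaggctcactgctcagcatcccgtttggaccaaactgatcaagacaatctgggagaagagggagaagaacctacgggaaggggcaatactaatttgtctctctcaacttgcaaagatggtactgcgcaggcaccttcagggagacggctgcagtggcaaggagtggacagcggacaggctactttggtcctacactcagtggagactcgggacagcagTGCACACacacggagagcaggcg
Trim63: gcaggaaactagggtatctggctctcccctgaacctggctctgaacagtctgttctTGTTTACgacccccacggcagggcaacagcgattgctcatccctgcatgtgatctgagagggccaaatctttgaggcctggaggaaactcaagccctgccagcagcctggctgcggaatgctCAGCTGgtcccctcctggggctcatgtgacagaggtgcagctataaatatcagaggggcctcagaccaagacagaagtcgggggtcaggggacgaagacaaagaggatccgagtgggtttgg
The metal core was found 3 times in the Mt1 window, 4 times in the Mt2 window and once each in those of Mt3 and Mt4. Of 32851 mouse promoter windows of this length, 25.7% held at least 1 such core, 7.11% at least 2 and 0.517% at least 4. The forkhead motif began 194 bases before the Trim63 start and stood in 3.65% of all windows. The E-box began 72 bases before it, and 16.3% of windows held one. These matches are a description of letters, not of binding.

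The members were chosen by the share of UMIs from the 5 rule genes, so the values of these genes are given as a description. Their share of UMIs ran from 1.19% to 3.94% among the members with a median of 1.57%, and in the remaining fast-fiber barcodes it had a median of 0.453%. There was no gap at the limit. Ranks 191 to 200 held shares of 1.19116% to 1.22302%, and ranks 201 to 210 held 1.15804% to 1.19048%. Mustn1 supplied 74.4% of the rule UMIs, Rrad 8.69%, Gabarapl2 6.25%, Mt3 6.02% and Trim63 4.61%. In the median member Mustn1 made up 76.5% of the rule UMIs, so the ranking followed Mustn1 more than the genes that gave the class its name.

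Mt3 was seen in 144 of the 200 members, with a median of 2 UMIs and a highest value of 25. Trim63 was seen in 142 members, with a median of 1 and at most 10 UMIs, and Rrad in 134, with a median of 1 and at most 37. Gabarapl2 was seen in 164 members, with a median of 2 and at most 15 UMIs, and Mustn1 in 199, with a median of 27 and at most 112. Most members carried several of these transcripts at once. All of Mt3, Trim63, Rrad and Gabarapl2 were seen in 66 members, 3 of them in 66, 2 in 55, 1 in 12 and none in 1.

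Summed over the class and scaled to 1000000 UMIs (CPM), Mt3 stood at 1004 CPM in the members (95% interval 921 to 1094), 258 in the remaining fast-fiber barcodes, 358 in the Ankrd1-Csrp3 barcodes and 108 in the slow-rich barcodes. In the fiber barcodes of uninjured muscle it had 0 UMIs of 214486, which puts the members at least 71.8-fold higher against a floor of 3 counts. Trim63 followed another order, with 770.3 CPM in the members, 398 in the remaining barcodes and 541 in the fiber barcodes of uninjured muscle. Trim63 was thus present in fibers before injury, whereas Mt3 was not detected there at this depth.

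Rrad stood at 1450.1 CPM in the members, 1158 in the Ankrd1-Csrp3 barcodes, 438 in the slow-rich barcodes, 219.9 in the remaining barcodes and 23.3 in uninjured fibers. Gabarapl2 ran from 1044 CPM in the members through 639.7 in the Ankrd1-Csrp3 barcodes to 121 in uninjured fibers. Mustn1 had its highest level outside the members, with 16689 CPM in the Ankrd1-Csrp3 barcodes against 12426 in the members and 504 in uninjured fibers. Mustn1 was thus highest in the Ankrd1-Csrp3 barcodes. Mt3, Trim63, Rrad and Gabarapl2 were highest in the members among the classes of the injured library. These genes helped to choose the members, so this order is a description only.

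**Figure D1:**
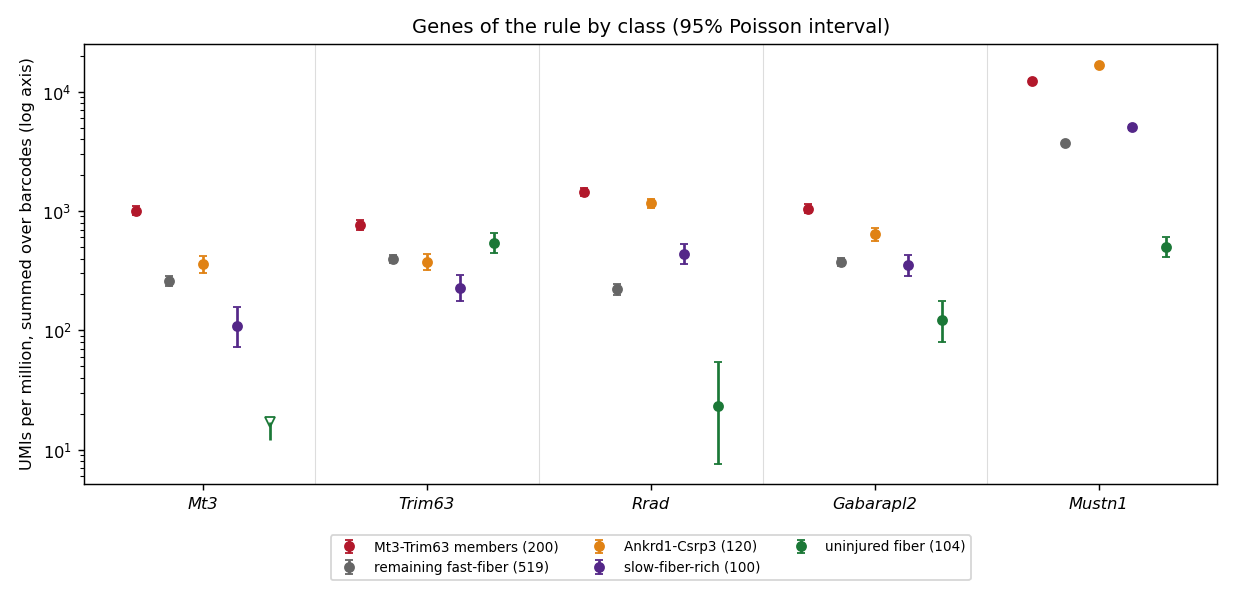
Levels of the 5 rule genes in the members and in the other fiber classes, as CPM on a log axis with exact Poisson 95% intervals of the counts. Mt3 (1004), Trim63 (770.3), Rrad and Gabarapl2, which helped to choose the members, were highest in them. Mustn1 was highest in the Ankrd1-Csrp3 barcodes (16689). Mt3 had 0 UMIs in uninjured fibers and is drawn as an open triangle at the upper limit of its interval.

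Each rule gene was next left out of the ranking, so that its own UMIs no longer chose the top 200 barcodes. Mt3 was then 864 CPM in the top 200 and 299 CPM in the rest, a log2 ratio of 1.53 (1.35 to 1.71), and 190 of the 200 barcodes were members. Rrad kept a log2 ratio of 1.88 (1.71 to 2.05) and Gabarapl2 of 1.27 (1.11 to 1.44). The lowest value was that of Trim63, at 0.77 (0.59 to 0.95), with 709 against 415 CPM. Without Mustn1, only 132 of the 200 barcodes were members, and Mustn1 itself stood at 9640.0 against 4575 CPM (log2 ratio 1.08, 1.02 to 1.13). Each gene thus stayed higher where the summed share of the other 4 was high, all within 1 library. With Mustn1 in the ranking that share was mostly Mustn1, which held 74.4% of the members' rule UMIs. Members were chosen with earlier results of these data known, so these ratios are a description only.

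To compare shares of barcodes at 1 depth, every barcode was thinned to 1200 UMIs, which left out 29 members and 44 remaining barcodes. Mt3 was then seen in 62.0% of the members (106 of 171, Clopper-Pearson 95% interval 54.3 to 69.3) and in 20.6% of the remaining barcodes (98 of 475). Before thinning these shares were 72.0% and 38.5%. In barcodes low in fiber genes the share was 5.43% (5 of 92 macrophage-marked barcodes) and 4.93% (21 of 426 other barcodes low in fiber genes). Before thinning their median depths were 5533 and 8136.5 UMIs and the Mt3 shares 18.6% and 34.7%. The other barcodes low in fiber genes were not free of muscle transcripts, with Myog seen in 21.8% of them at 1200 UMIs. In uninjured fibers Mt3 was seen in 0 of 90, which allows a share of barcodes with a UMI of up to 3.33% at the floor of 3 counts and of up to 4.02% by the Clopper-Pearson interval.

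Trim63 was seen at the same depth in 47.4% of the members, 33.5% of the remaining barcodes and 32.2% of the uninjured fiber barcodes, and in 2.17% of the macrophage-marked barcodes. Rrad was seen in 50.9% of the members, 18.9% of the remaining barcodes and 52.6% of the Ankrd1-Csrp3 barcodes. For Gabarapl2 these shares were 69.6%, 33.1% and 52.6%. The rule used all 4 of these genes, so nothing is read from the gap between the members and the remaining barcodes.

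Across the 646 barcodes of the members and the remaining class that reached 1200 UMIs, the rule genes tended to be seen together. Of 204 barcodes with an Mt3 UMI, 41.7% (34.8 to 48.8) also had Rrad, against 20.8% (17.1 to 24.9) of the 442 without one. Gabarapl2 was seen in 53.9% against 37.6%, and Trim63 in 43.6% (36.7 to 50.7) against 34.2% (29.7 to 38.8). Among genes outside the rule, Esd was seen in 49.5% against 21.7% and Lgals3 in 25.0% against 11.3%. Around Trim63 the shares of these genes lay closer. Of 240 barcodes with a Trim63 UMI, 30.4% (24.7 to 36.7) had Esd, against 30.5% (26.1 to 35.3) of the 406 without one, and for Lgals3 the shares were 16.7% and 15.0%. Tsc22d1 was seen in 24.6% (19.3 to 30.5) of barcodes with Trim63 against 11.3% (8.42 to 14.8), and Cdkn1a in 22.1% against 11.3%. Fbxo32, the ligase gene often paired with Trim63, was seen in 8.82% of barcodes with Mt3 and 8.37% of those without. These barcodes share 1 library and the shares are a description.

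The members were then compared with the 519 remaining fast-fiber barcodes of the same library, to see which genes outside the rule came with it. A gene was called higher or lower when its mean level was at least 50 CPM, its ratio at least 1.5-fold and the counting interval of the ratio left out 1. Of 2175 genes tested, 265 were higher in the members (12.2%) and 136 were lower (6.25%), and the median log2 ratio of all of them was 0.11. Scaling by TMM, a trimmed mean of ratios that sets the typical gene near 0, lowered every log2 ratio by 0.23 and gave 121 higher and 301 lower. The members' UMIs were less concentrated in fiber genes, with 10.9% from the 10 fiber genes against 14.7% in the remaining barcodes. Because the rule genes and these levels come from the same barcodes, the ratios are a description of the class.

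The 12 highest ratios outside the rule fell on genes of varied function. Lgals3, which encodes the sugar-binding lectin galectin-3, led with 521 CPM (276 UMIs) against 95.8 (173 UMIs), a log2 ratio of 2.44 (2.16 to 2.73). Tsc22d1, which encodes a leucine-zipper transcription regulator, stood at 400.3 against 87.5 CPM and S100a10, the partner of annexin A2, at 527 against 128. Anxa2, annexin A2 itself, stood at 230.3 against 79.8 CPM, so both partners were among the 12.

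Esd, which encodes esterase D, a hydrolase that completes the removal of formaldehyde through glutathione, stood at 795 against 221 CPM (log2 ratio 1.85, 1.65 to 2.05). Cdkn1a, the p21 inhibitor of cyclin-dependent kinases and a p53 target, stood at 374 against 117 CPM (1.68, 1.39 to 1.96). Rnh1, the cytosolic ribonuclease inhibitor, had a log2 ratio of 1.61 and Ankrd10 one of 1.92. Sdf2l1, which encodes a luminal protein of the endoplasmic reticulum (ER), had a log2 ratio of 1.71, and Tram1, which assists protein translocation into the ER, one of 1.69.

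The 12 also held Cd68, a lysosomal glycoprotein best known from macrophages, at 149 against 45.4 CPM (1.72, 1.25 to 2.18). It was seen in 60 of the 200 members, with at most 3 UMIs in any of them. Lgals3 is also abundant in macrophages, so the macrophage list was read as a whole. Its 14 markers held 304 CPM in the members and 365 CPM in the remaining barcodes. Per barcode the order was the other way, with a median share of 0.0175% in the members and 0% in the remaining barcodes. The highest share was 0.251% in the members and 1.98% in the remaining barcodes. In the members 4 of them, Adgre1, C1qa, Fcgr3 and Itgam, were at 0. Lyz2, the lysozyme gene that macrophages express strongly, stood at 71.7 CPM in the members, 108 in the remaining barcodes and 11447 in the macrophage-marked barcodes. Among barcodes with under 0.1% of UMIs from these markers other than Cd68, an alternative chosen after the data were seen, 197 members and 502 remaining barcodes were left. The log2 ratio there was 2.61 for Lgals3 and 1.80 for Cd68.

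At 1200 UMIs, Lgals3 was seen in 35.7% of the members (28.5 to 43.3), 8.42% of the remaining barcodes, 84.8% of the macrophage-marked barcodes and 14.1% of the other barcodes low in fiber genes. Cd68 was seen in 19.3% of the members, 5.05% of the remaining barcodes, 38.0% of the macrophage-marked barcodes and 1.17% of the others. The part of free macrophage RNA in these values was not tested.

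The 12 lowest ratios included several genes of the contractile apparatus and its energy supply. Ldb3, which encodes a Z-disc protein, stood at 391 CPM in the members and 914 in the remaining barcodes, a log2 ratio of -1.23 (-1.44 to -1.02). Ckmt2, the mitochondrial creatine kinase of muscle, stood at 157 against 384 CPM (-1.29) and Ampd1, the muscle AMP deaminase, at 77.4 against 186 (-1.27). Mrln, a micropeptide that inhibits the calcium pump SERCA, had a log2 ratio of -1.51, Lrrc30 one of -1.82 and Ank1, an ankyrin that links the sarcoplasmic reticulum to the myofibril, one of -1.24. The others were Stbd1, a glycogen-binding protein (-1.35), the retinoid receptor gene Rxrg (-1.33), the alanine transaminase gene Gpt2 (-1.22), the actin-associated Synpo2 (-1.13) and the uncharacterized 1700120C14Rik (-1.19).

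The lowest ratio belonged to Cxcl2, a neutrophil-attracting chemokine, with 43.4 against 295 CPM (-2.76). That value rested on few droplets, since 4 of the remaining barcodes held 83.8% of its UMIs in that class. Among barcodes with under 0.1% of UMIs from macrophage markers its log2 ratio was -0.13.

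**Figure D2:**
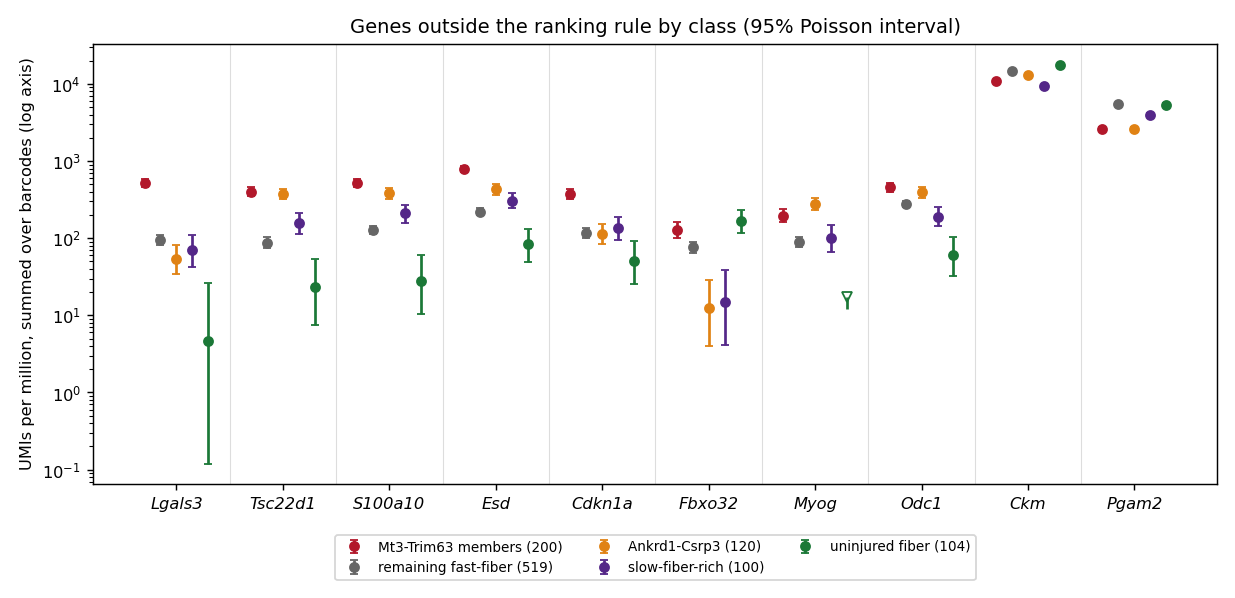
Levels of genes outside the rule in the members and in the other fiber classes, as CPM on a log axis with exact Poisson 95% intervals of the counts. Lgals3 stood at 521 in the members and at most 95.8 in the other fiber classes of the injured library, whereas Tsc22d1 stood at 400.3 in the members and 375 in the Ankrd1-Csrp3 barcodes.

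The atrophy genes were examined next, because the class had been labelled atrophy-like. Of a list of 19 ubiquitin ligases and FoxO targets without Trim63, 7 were tested against the remaining barcodes, 1 was higher and 1 lower, with a median log2 ratio of 0.03 against 0.11 for all genes. The shares over all genes were 12.2% higher and 6.25% lower. The higher one was Fbxo32, at 128 CPM (68 UMIs) against 76.4 (138 UMIs), a log2 ratio of 0.75 (0.31 to 1.18). The lower one was Asb2, a subunit of a ubiquitin ligase that targets filamins, at 232 against 419 CPM (-0.85). Fbxo31, Fbxo40, Eif4ebp1 and Zfand5 lay between -0.38 and 0.36. At 1200 UMIs, Fbxo32 was seen in 8.77% of the members and 8.42% of the remaining barcodes, and the intervals overlapped. Under TMM scaling the ratio of Fbxo32 was 0.52, under 1.5-fold, so that none of the 7 was higher and 2 were lower. Against the remaining barcodes the label therefore rests on Trim63, a rule gene, and on Fbxo32, whose call was lost under TMM scaling. Fbxo32 was also higher than in the Ankrd1-Csrp3 (3.38) and slow-rich barcodes (3.10), but was not called against uninjured fibers, as given below. The class is called here by its rule genes.

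Few genes of the proteasome and of autophagy were called, beside 12.2% higher and 6.25% lower over all genes. Of 38 proteasome and ubiquitin genes tested, 1 was higher (the deubiquitinase subunit Psmd14, 0.68) and 1 lower (the conjugating enzyme Ube2b, -0.68). The median was 0.26 and 31 of the 38 were above 0. Under TMM scaling the median was 0.03, 22 were above 0 and only Ube2b was called. Of 13 autophagy and mitophagy genes other than Gabarapl2, none was higher and 2 were lower, the mitophagy receptors Optn (-1.30) and Bnip3 (-0.67). The relatives of Gabarapl2 stayed close between the classes. Gabarap stood at 339.9 against 346 CPM, Map1lc3a at 733 against 807 and Map1lc3b at 649 against 725, while the cargo receptor gene Sqstm1 stood at 430 against 301 (0.52).

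Mt3 was a rule gene, so its excess in the members was partly fixed by the choice. With Mt3 left out of the ranking its log2 ratio was 1.53 (1.35 to 1.71). Its relatives Mt1, Mt2 and Mt4 took no part in the ranking. Mt1 stood at 4065 CPM in the members and 4314 in the remaining barcodes, a log2 ratio of -0.09 (-0.16 to -0.02). Mt2 stood at 4903 against 3492 CPM (0.49, 0.42 to 0.56), and neither was called. Mt1 moved to the other side of 0 in some alternatives, from -0.31 to 0.41. Mt4 was too low to be tested, with 23 UMIs in the members and 15 in the remaining barcodes. Against uninjured fibers both Mt1 (1.65) and Mt2 (2.95) were higher in the members.

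Stress genes lay on both sides. Over all genes tested, 12.2% were higher and 6.25% lower, with a median of 0.11. Of 5 ER stress and amino acid response genes tested, 4 were higher, with a median of 0.74. Under TMM scaling the median was 0.51 and only Ddit3 and Xbp1 were called. The 4 were the transcription factor genes Atf4 (425 against 276 CPM, 0.62), Ddit3 (166 against 91.4, 0.86) and Xbp1 (0.93), and the phosphatase subunit gene Ppp1r15a (0.74). The chaperone gene Hspa5 lay at -0.27. Of 5 p53 targets, Cdkn1a, the ubiquitin ligase gene Mdm2 (1.13) and the death effector gene Bax (0.60) were higher, while Ccng1 (-0.48) and Phlda3 (-0.35) were not called. Under TMM scaling Cdkn1a and Mdm2 were higher and Ccng1 lower.

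In the next 4 lists at most 2 genes each were higher and at most 2 lower, beside 12.2% and 6.25% of all genes, so only their members are described. Of 11 genes of the NRF2 response and iron storage, the antioxidant enzyme genes Srxn1 (193 against 89.7 CPM, 1.09) and Prdx6 (517 against 260.4, 0.99) were higher and Gpx3 was lower (-0.60). Of 12 heat shock genes, the small heat shock protein gene Cryab was higher at 15029 against 9613 CPM (0.64), a call lost under TMM scaling, and Hspb6 (-0.82) and the myosin chaperone gene Unc45b (-0.61) were lower. Of 6 early response genes none was higher, and Fos (-1.18) and Btg2 (-1.04) were lower. Of 8 glucocorticoid-responsive genes, Cdkn1a was higher and Sgk1 (-1.50) and Cebpd (-0.59) were lower.

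Among genes of nerve contact and regeneration, Myog, the transcription factor gene of myogenic differentiation, which denervated fibers also express, stood at 196 against 89.7 CPM (1.13, 0.76 to 1.49). It was seen in 53 members, and 4 of them held 33.7% of its UMIs. When fiber barcodes had to take at least 10% of UMIs from fiber genes, its log2 ratio was -0.17. Sln, the SERCA inhibitor sarcolipin, was also higher (69.9 against 41.5 CPM, 0.75), as was Vim, which encodes the intermediate filament protein vimentin (325 against 129, 1.33). Myod1 was not (155 against 176 CPM). Of 4 nerve contact genes tested 2 were higher, and of 6 regeneration genes 2, with Myog on both lists and none lower. The shares over all genes were 12.2% higher and 6.25% lower. Under TMM scaling Myog and Vim stayed higher, the call of Sln was lost and the actin gene Actc1 was lower.

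Genes of actin and mechanical load were split, beside 12.2% higher and 6.25% lower over all genes. Actb (0.69) and the load-responsive sarcomere gene Xirp2 (0.73) were higher and the cytoplasmic gamma-actin gene Actg1 (-0.72) was lower, of 8 tested, and under TMM scaling only Actg1 was called. Of the 6 genes that defined the Ankrd1-Csrp3 barcodes, Ankrd1 (1.01), Csrp3 (1.12) and Mybph (0.94) were higher in the members than in the remaining barcodes and Otud1 was lower (-0.90), although barcodes with the highest share of these genes had been removed from both.

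Many genes of energy supply and contraction were lower, though in no list did all members pass. The shares over all genes were 6.25% lower and 12.2% higher. Of 17 genes of glycolysis and glycogen tested, 9 were lower and none higher (11 lower under TMM scaling), with a median log2 ratio of -0.70 against 0.11 for all genes. Pgam2, the muscle phosphoglycerate mutase, stood at 2598 against 5495 CPM (-1.08), Tpi1 at 1359 against 2779 (-1.03) and Eno3, the muscle enolase, at 2655 against 5060 (-0.93). Gapdh (-0.30) and Aldoa (-0.38) differed less and were not called. The glycogen phosphorylase gene Pygm (-0.71), the phosphorylase kinase subunit gene Phkg1 (-1.08) and the glycogen synthase gene Gys1 (-0.96) were among the lower genes.

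Of 15 fast-fiber genes outside the rule, 7 were lower and none higher (11 lower under TMM scaling), with a median of -0.50. They included Tpm1, tropomyosin (13917 against 22808 CPM, -0.71), Tcap, the titin cap (1886 against 3635, -0.95), and Mybpc2, fast myosin-binding protein C (-0.63). Of the 10 genes that defined fiber barcodes, Myh4, the fast myosin heavy chain gene, was lower (674 against 1036 CPM, -0.62), and Ckm, muscle creatine kinase, stood at 10772 against 14593 CPM (-0.44). All 27 nuclear genes of the respiratory chain lay below 0 with a median of -0.24, and 4 of them, among them Sdha, Uqcrc2 and Cyc1, were called lower (7 under TMM scaling). Of 8 mitochondrially encoded genes tested none was called, with a median of -0.21.

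Ribosomal protein genes lay on the other side. All 28 tested were above 0, with a median of 0.43, but only Rplp0 passed the fold (0.60), and under TMM scaling none did and 24 were above 0 with a median of 0.20. These 28 genes took 6.74% of the members' UMIs and 5.05% of those of the remaining barcodes. Of 9 tested genes of polyamine metabolism and Eif5a, the pathway the study was about, 4 were higher and none lower. This stands beside 12.2% higher and 6.25% lower over all genes. The list had a median of 0.44 against 0.11 for all genes. Under TMM scaling Azin1 and Sat1 were higher and the antizyme gene Oaz2 lower, with a median of 0.21. The 4 were Odc1, the ornithine decarboxylase (455 against 275 CPM, 0.73), its antizyme inhibitor Azin1 (0.92), the acetyltransferase gene Sat1 (0.94) and Dohh, which completes the hypusine of eIF5A (0.59). Eif5a itself stood at 1001 against 738 CPM (0.44, 0.29 to 0.58) and was not called.

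**Figure D3:**
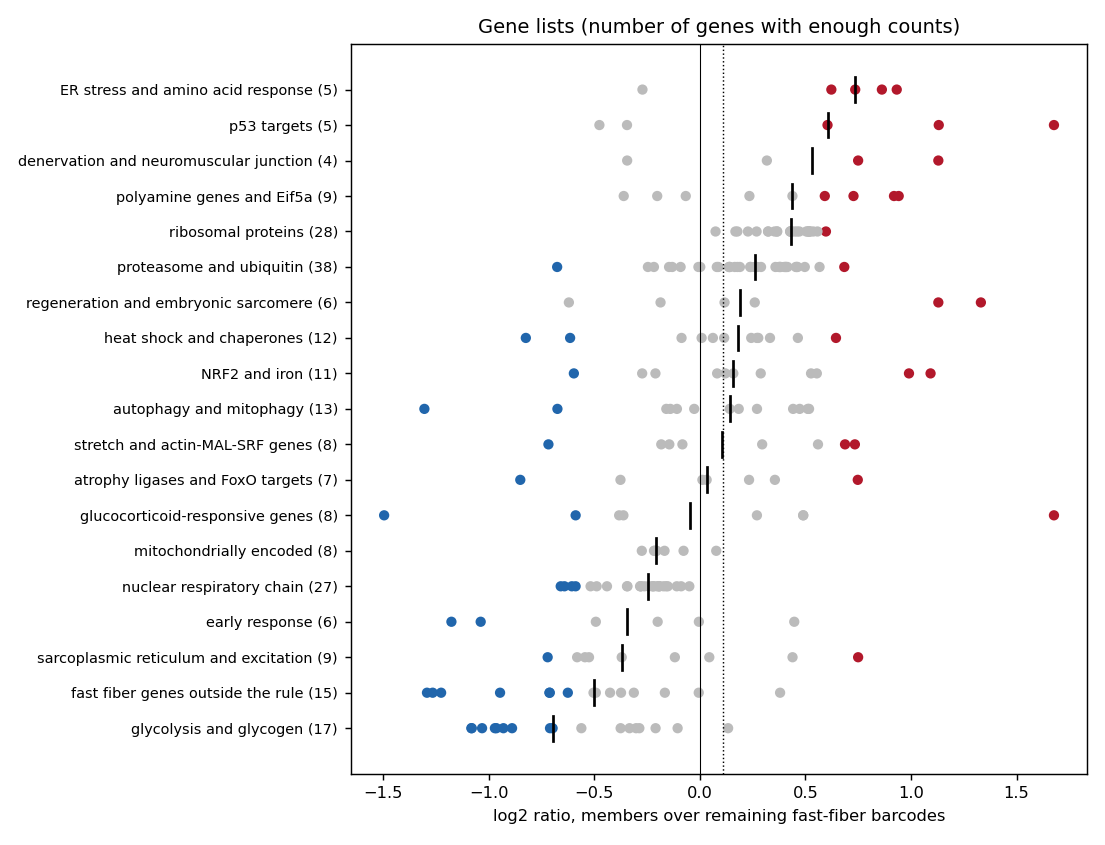
Log2 ratios of the members over the remaining fast-fiber barcodes for the tested genes of each list with at least 4 of them, 1 point per gene, a black bar at the list median, the called genes colored, with a dotted line at the median of all genes (0.11). Glycolysis and glycogen genes lie lowest with a median of -0.70, and all 28 ribosomal protein genes lie above 0.

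Markers of most other cells were low in the members. The macrophage markers described above held 304 CPM, the satellite cell markers 102 CPM and the cell cycle genes 119 CPM. Pax7 had 1 UMI and Myf5 0 in all 200 members, although the labels name the sorted cells as muscle stem cells. All 6 endothelial markers and all 5 T and NK cell markers were at 0, as were 5 of 6 fibroblast markers. None of the markers of satellite cells, neutrophils, Schwann cells or smooth muscle, of the cell cycle genes or of the hemoglobin transcripts was high enough to be tested against the remaining barcodes. The members carried few mitochondrial UMIs, with a median of 0.180%, close to the 0.171% of the remaining barcodes and against 2.27% in the other ASC barcodes low in fiber genes.

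The 120 Ankrd1-Csrp3 barcodes were compared next, since their median share of the rule genes, 1.94%, was above that of the members. Several leading genes of the members were as high there. Tsc22d1 stood at 400.3 CPM in the members and 375 in the Ankrd1-Csrp3 barcodes (0.09, -0.21 to 0.40), and Ankrd10 at 259 against 245 (0.08, -0.30 to 0.47). Rnh1 stood at 461 against 412 CPM (0.16) and Anxa2 at 230.3 against 277 (-0.26), and the log2 ratio of Rrad was 0.32 (0.16 to 0.49).

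Other genes set the members apart from them. Lgals3 stood at 54.3 CPM in the Ankrd1-Csrp3 barcodes, 3.26 (2.63 to 3.96) below the members on the log2 scale, and Fbxo32 at 12.4 CPM with 5 UMIs (3.38, 2.09 to 5.05). Cdkn1a (1.72) and Esd (0.89) were also higher in the members. So were Mt3 (1.49) and Trim63 (1.04), which had been used to choose the members. The highest ratios were completed by the antiproliferative gene Btg1 (2.59), the transcription factor gene Maf (2.24) and Fbxl22, an F-box gene (2.08). Of 7 atrophy genes tested, 4 were higher and 1 lower, or 2 and 2 under TMM scaling. Over all genes, 405 of 2069 were higher (19.6%) and 111 lower (5.36%), with a median of 0.31.

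The lowest ratios in this comparison included stress genes. Hspa1a, the inducible HSP70 gene, stood at 7.55 CPM in the members (4 UMIs) and 168 in the Ankrd1-Csrp3 barcodes (-4.47), and the stress transcription factor gene Atf3 at 45.3 against 785 (-4.12). The lowest ratios also held Enah, an actin regulator, and Otud1 and Hspb1, which had been used to choose that class. Of 13 heat shock genes tested, 10 were lower and none higher, and Cryab stood at 15029 against 44437 CPM (-1.56). Of 10 genes of stretch and actin signaling, 7 were lower. The share over all genes in this comparison was 5.36% lower.

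Against the 100 slow-rich barcodes, 319 of 2143 genes were higher in the members (14.9%) and 225 lower (10.5%). Fbxo32 (3.10) and Lgals3 (2.87) again had the highest ratios, and the small nucleolar host gene Snhg6 (2.20) and Ubfd1 (2.11) were also among the 5 highest. Pcp4, a calmodulin-binding peptide gene, had 0 UMIs in the members and 82 in the slow-rich barcodes, at least 54.2-fold lower in the members. Gm14216 (0 against 32 UMIs) was at least 21.1-fold lower. The other low ratios were those of Myl2, Tnnt1 and Myl3, which had been used to choose the slow-rich barcodes. Of 38 proteasome and ubiquitin genes 19 were higher and none lower (14 higher under TMM scaling), and of 27 nuclear respiratory chain genes 14 were lower and none higher (20 lower under TMM scaling).

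Against the 104 fiber barcodes of uninjured muscle, the members differed in more genes, with 577 of 2105 higher (27.4%) and 401 lower (19%). Injury and library cannot be told apart here. Myog had 104 UMIs in the members and 0 in uninjured fibers, at least 14.0-fold higher. For Cd68 the bound was 10.7-fold, for Cgref1 9.45-fold and for the kinase gene Stk39 8.10-fold, all with 0 UMIs in uninjured fibers. Lgals3 had 276 UMIs against 1 (log2 ratio 6.80, 4.31 to 12.11). Trim63 was not called (0.51, 0.21 to 0.82), and Fbxo32 stood at 128 CPM in the members and 168 in uninjured fibers (-0.39, -0.99 to 0.24), so neither atrophy ligase gene was called against uninjured fibers.

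The lowest ratios belonged to Arrdc2, an arrestin-domain gene (1 UMI against 31, -6.26), the mTORC1 inhibitor gene Ddit4 (1 against 22, -5.76), the slow light chain gene Myl3 (-4.89), the type IIa myosin gene Myh2 (-3.89) and Klf15, a glucocorticoid-induced factor (-3.83). Of 11 glucocorticoid-responsive genes, 7 were lower and 2 higher, and of 9 early response genes 8 were lower. Of 38 proteasome and ubiquitin genes, 27 were higher and 4 lower, and of 28 ribosomal protein genes 25 were higher. Of 27 nuclear respiratory chain genes, 23 were lower. These counts stand beside 27.4% higher and 19% lower over all genes. Median depth was 2292.5 UMIs in the members and 1635 in uninjured fibers, and the mitochondrial share 0.180% and 0.719%.

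To see whether the members formed a separate set, the 719 barcodes were followed along the rank of their rule share. Several genes outside the rule had levels that went down or up along the ranking. Esd stood at 998 CPM in ranks 1 to 100, 622 in ranks 101 to 200, 493 in ranks 201 to 300 and 105 in ranks 601 to 719. Lgals3 stood at 649, 413 and 188 CPM in the first 3 of these bins and 89.6 in the last. Cdkn1a went from 459.8 to 54.8 CPM between the first and the last bin. In the other direction, Ldb3 stood at 296 CPM in ranks 1 to 100 and 1112 in ranks 601 to 719, and Ckm at 9549 and 16077 CPM. Fbxo32 went down unevenly, with 123, 133, 78.5, 131, 59.5, 86.7 and 37.3 CPM over the 7 bins. Its intervals in the first bin (83.1 to 176) and the last (20.9 to 61.6) did not overlap. Median depth was 2126 UMIs in the first bin and 2868 in the last. Some levels dropped across rank 200. Lgals3 went from 413 CPM (341 to 494) in ranks 101 to 200 to 188 (144 to 242) in ranks 201 to 300, and Myog from 196 (148 to 254) to 78.5 (51 to 116). A few members held much of the Myog UMIs, as given above. Its log2 ratio was -0.17 when fiber barcodes had to take at least 10% of UMIs from fiber genes. For Esd, Cdkn1a, Ldb3 and Ckm the neighboring bins on either side of rank 200 were closer, and bins of 100 barcodes cannot place a step more finely.

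**Figure D4:**
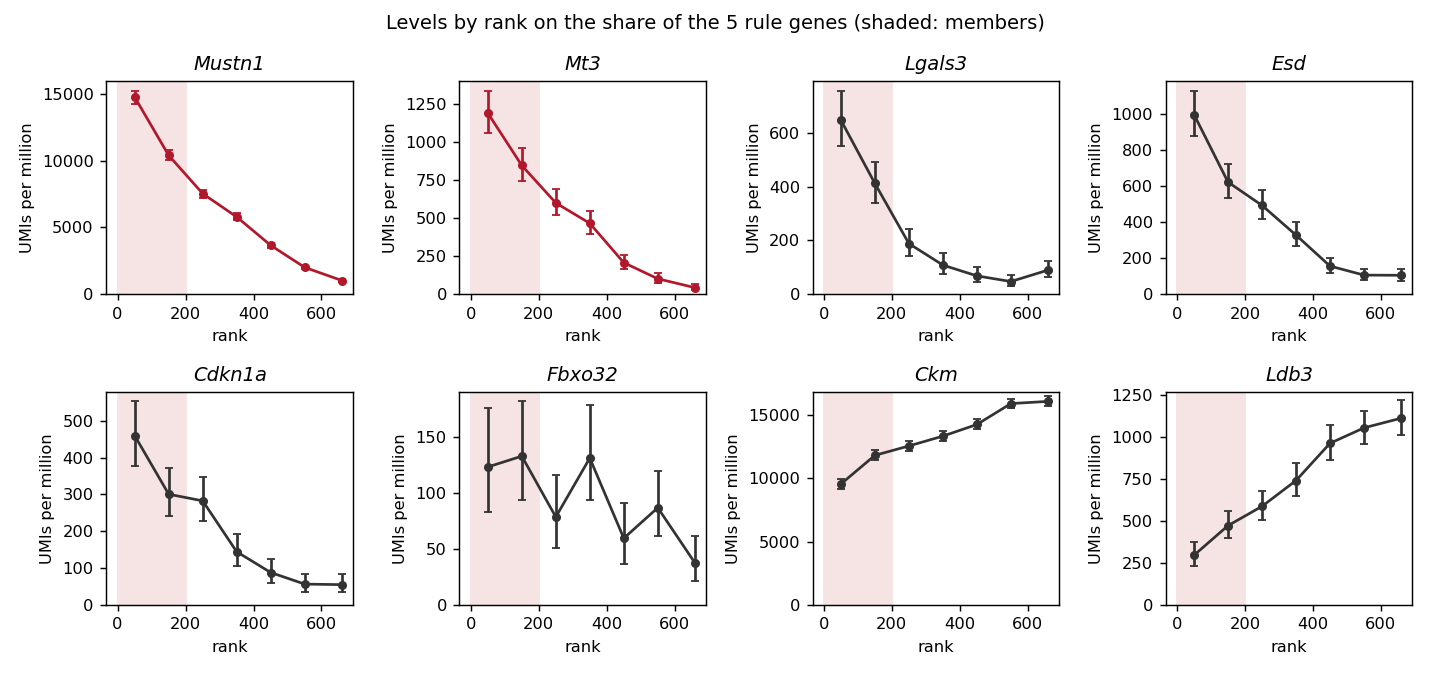
Levels in CPM, with exact Poisson 95% intervals of the counts, over 7 bins of the 719 barcodes ordered by their share of the 5 rule genes, with the members' ranks shaded. Lgals3 and Esd were highest in ranks 1 to 100 (649 and 998) and Ckm was highest in ranks 601 to 719 (16077), and Lgals3 dropped from 413 to 188 across rank 200.

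The same ranking was applied to the 104 fiber barcodes of the QSC library, which the rule did not use. After removal of 11 barcodes for slow-fiber genes and 13 for the Ankrd1-Csrp3 genes, in proportion, the top 22 were compared with the other 58. Mt3 had 0 UMIs in both, and Rrad 0 and 4 UMIs. Trim63 stood at 1442 against 355 CPM (55 and 42 UMIs) and Mustn1 at 917 against 211, as the ranking fixed. Fbxo32, which took no part in it, stood at 315 against 127 CPM with 12 and 15 UMIs, a log2 ratio of 1.31 (0.09 to 2.51). Of the genes called higher in the ASC members, 26 had at least 20 UMIs there, and 15 of these (57.7%) were above 0, against 441 of 937 genes (47.1%) overall. Of those called lower, 43 of 86 were above 0 . The combination of Mt3 and Rrad with Trim63 was thus not detectable in the uninjured library at this depth.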

How the data were processed

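Single-cell 3' v2 libraries (10x Genomics) of 1 QSC and 1 ASC sample were analyzed. The deposited matrices hold whole-number UMI counts of 32285 genes per barcode, which the authors made with Cell Ranger (6.0.2 in the file header, 7.1.0 in the submitters' processing notes, build mm10). The notes also name Seurat 4.1.0 and R 4.1.2.

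UMIs were summed per class and expressed as CPM with exact Poisson 95% intervals, and ratios carry exact conditional binomial intervals (Python 3.11.15, NumPy 2.4.6, SciPy 1.17.1, pandas 2.3.3, matplotlib 3.10.9). These intervals and the floor of 3 counts (5.66 CPM in the members) cover counting error only. TMM scaling used edgeR 4.0.16 in R 4.3.3, and no count model was fitted. The rule genes were left out of every count of genes. Scripts were tested on simulated data, and no doublets were removed.

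Genes were named by a rule: the 12 highest and 12 lowest ratios against the remaining barcodes and 5 each way elsewhere, outside the rule and mitochondrial genes and with at least 100 CPM in the higher class, plus, in each list, the called genes and up to 4 others with the highest levels. Genes that define the classes are named as well. A few genes that the rule names are not reported here. Members and lists were chosen with earlier results of these data known. Positions are 1-based.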

Additional observations from a re-analysis of the deposited data

How the results depend on the processing

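No paired analysis was possible because each group had 1 library. Against the remaining fast-fiber barcodes, 265 genes were higher and 136 lower. TMM scaling gave 121 and 301, all 121 and all 136 main calls being shared, and its construction shifts every log2 ratio by -0.23. Without a minimum level there were 775 and 275, since more genes were tested, and with a minimum mean of 200 CPM 45 and 43, since fewer were. Every other alternative kept both counts within 1.5-fold (192 to 317 higher and 101 to 185 lower). Those alternatives scaled to UMIs outside the fiber and rule genes, weighted barcodes equally, changed the limits on mitochondrial, gene and fiber content, took 100 or 300 members, ranked at 1200 UMIs or on a random part of the UMIs, left out a rule gene, or, chosen after the data were seen, limited depth or macrophage UMIs. The genes called differed more than the counts. Of the 265 and 136 calls, 119 and 66 were shared with at least 10% fiber UMIs, 156 and 78 when members were chosen on one part of the UMIs, 164 and 83 with at least 800 genes and 175 and 61 when ranked without Mustn1. Against uninjured fibers the counts stayed within 1.5-fold (424 to 577 higher, 362 to 435 lower).

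Of 35 named genes under 18 settings, 526 of 630 ratios stayed within their counting interval, 98 moved and 6 reversed. Myog reversed to -0.17 with at least 10% fiber UMIs. Mt1, at -0.09, reversed to 0.0345 with at least 10% fiber UMIs, 0.12 with 100 members, 0.0274 with 300 members, 0.17 when ranked at 1200 UMIs and 0.41 when ranked without Mustn1. The cause was not tested. Lgals3 ranged from 1.90 to 2.61, Mt3 from 1.53 to 2.40, Trim63 from 0.72 to 1.73 and Cxcl2 from -3.29 to -0.13. Members hold a median of 2292.5 UMIs, so a gene with few UMIs per barcode is seen in a share of members only, and a difference between 2 libraries cannot be separated from the injury.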
